A study of Mus musculus with 4 samples.

Results

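The Th1 axis described here is a set of 10 genes. They encode the chains of the IL-12 receptor (Il12rb1, Il12rb2) and of the IL-18 receptor (Il18r1, Il18rap), the transcription factors Stat4, Tbx21, Eomes, Runx3 and Hlx, and the cytokine interferon-γ (Ifng). The members were chosen by symbol, and all 10 were found among the 16230 genes of the deposited table and passed the filter for testing. RNA was taken from splenic CD3+CD4+ T cells, sorted 8 weeks after naive CD4 T cells had been transferred into Rag-/- mice to cause colitis. Donor cells were ERαfl/fl, with loxP-flanked Esr1 alleles and no Cre (control, 2 libraries), or CD4CreERαfl/fl, with the same flanked alleles and Cre driven from Cd4 (labelled ERα-deficient, here the CD4Cre libraries, 2 libraries). Such a Cre acts in all cells that pass through a Cd4-expressing stage in the donor. All hosts were Rag-/- and colitic. Such hosts make no T or B cells of their own but keep NK cells and myeloid cells. The labels give no age of the mice and do not say whether libraries of a group came from separate animals, so p-values measure only how these libraries vary, which may be technical.

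IL-12 and IL-18, made mainly by activated myeloid cells, are the cytokines that drive T helper 1 differentiation. IL-12 binds a receptor of the Il12rb1 and Il12rb2 chains and acts through the kinases Jak2 and Tyk2 on Stat4, while IL-18 binds a receptor of the Il18r1 and Il18rap chains and signals through Myd88. Stat4 and the T-box factor T-bet (Tbx21) promote transcription of Ifng, with Runx3, Hlx and the related T-box factor Eomes as partners. Th1 cells that make interferon-γ are the main effector cells described in the transfer model of colitis. NK cells also express Tbx21, Eomes, Runx3, Stat4, the IL-18 receptor and Ifng.

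Levels are in FPKM, a unit that divides fragments by transcript length and by library depth, so genes can be compared per length. The table gives no counts. The step between low values put the depth at an estimated 500000 to 697000 fragments per library, so that a single fragment of a 2000-base transcript gave 0.718 to 1.0 FPKM. Esr1, the targeted gene, stood at 0.23 FPKM (control 1), 0 (control 2), 0 (CD4Cre 1) and 1.96 FPKM (CD4Cre 2). Since 1 value per gene covers flanked and remaining exons alike, the labels could not be checked with it. Of 14 T cell markers, 14 were lower in both CD4Cre libraries than in both controls, as were 25.7% of all genes tested. Their summed values were 375 to 452 FPKM against 1497 to 1836. All 16 macrophage and monocyte markers were higher in both, as were 23.2% of all genes tested, with sums of 2753 to 3291 against 95.3 to 472. In bulk RNA, fewer cells of a type and less RNA per cell cannot be told apart.

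Promoter sequences from RefSeq (GRCm38.p6) matched 9 of the 10 members by symbol, all but Il12rb1. The 250 bases before each of 13 annotated starts of these members were searched on both strands for the letters of a T-box core (GGTGTG), a RUNX motif (TGTGGT), a STAT motif (TTCNNNGAA) and an AP-1 motif (TGANTCA). The STAT and AP-1 motifs read the same on both strands, and no sequence printed here holds matches of more than 1 motif. Capitals mark the matches in the bases before the outermost annotated start of each gene, printed in the direction of transcription. Ifng and Il12rb2 are shown as a cytokine and a receptor gene with a STAT match, Runx3 for its RUNX matches, and Hlx as the member with the opposite direction of difference.
Ifng (chr10:118440796-118441045, + strand): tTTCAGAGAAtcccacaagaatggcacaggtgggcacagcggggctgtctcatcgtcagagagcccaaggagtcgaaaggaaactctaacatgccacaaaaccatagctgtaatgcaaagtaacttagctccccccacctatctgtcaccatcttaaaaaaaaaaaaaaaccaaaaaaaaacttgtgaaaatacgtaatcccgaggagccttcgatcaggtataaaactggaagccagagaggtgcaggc
Il12rb2 (chr6:67376294-67376438, - strand): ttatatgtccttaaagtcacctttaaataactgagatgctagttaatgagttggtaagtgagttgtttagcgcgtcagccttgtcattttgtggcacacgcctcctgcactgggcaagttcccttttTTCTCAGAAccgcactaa
Runx3 (chr4:135120395-135120644, + strand): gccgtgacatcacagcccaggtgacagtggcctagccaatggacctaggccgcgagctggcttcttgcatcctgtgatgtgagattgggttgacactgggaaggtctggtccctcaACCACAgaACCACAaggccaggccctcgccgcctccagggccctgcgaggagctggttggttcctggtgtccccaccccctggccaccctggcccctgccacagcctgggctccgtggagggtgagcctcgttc
Hlx (chr1:184732494-184732743, - strand): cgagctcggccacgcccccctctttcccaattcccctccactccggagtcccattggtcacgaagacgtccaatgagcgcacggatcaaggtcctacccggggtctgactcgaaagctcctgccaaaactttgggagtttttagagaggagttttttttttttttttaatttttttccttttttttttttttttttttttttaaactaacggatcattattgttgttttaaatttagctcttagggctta
The Il12rb2 sequence has 145 bases because the rest of its window lies within the gene body. A STAT match was found in 3 of the 13 windows, against 7.0% of 32851 windows of this length. The T-box core was in 1 window (16.3% of all), the RUNX motif in 1 (14.0% of all) and the AP-1 motif in 0 (6.7% of all). A match describes the letters alone and is not shown to be a binding site.

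Most Th1 axis genes had lower FPKM in the CD4Cre libraries, Runx3 and Il12rb2 overlapped between the groups, and Hlx was higher. Of the 10 members 8 had a lower mean, as did 53.6% of all genes tested. In 7 of 10 members both CD4Cre libraries lay below both controls, where 25.7% of the 12896 genes tested did so. In 1 member, Hlx, they lay above, as in 23.2% of all genes tested. The median log2 fold change of the members, CD4Cre libraries minus control on log2(FPKM + 1), was -1.09, against -0.07 for all genes tested. In limma 0 of the 10 passed an adjusted p of 0.05 over all genes, as only 0.0155% of genes were called higher and 0.0388% lower. At an unadjusted p under 0.05, limma found 5 members lower and 1 higher, where 6.8% of all genes were lower and 9.1% higher at that level. With voom weights on recovered fragments, 0 of the 6 members that could be tested were called, against 0.284% of genes called lower and 1.04% called higher.

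**Figure D1:**
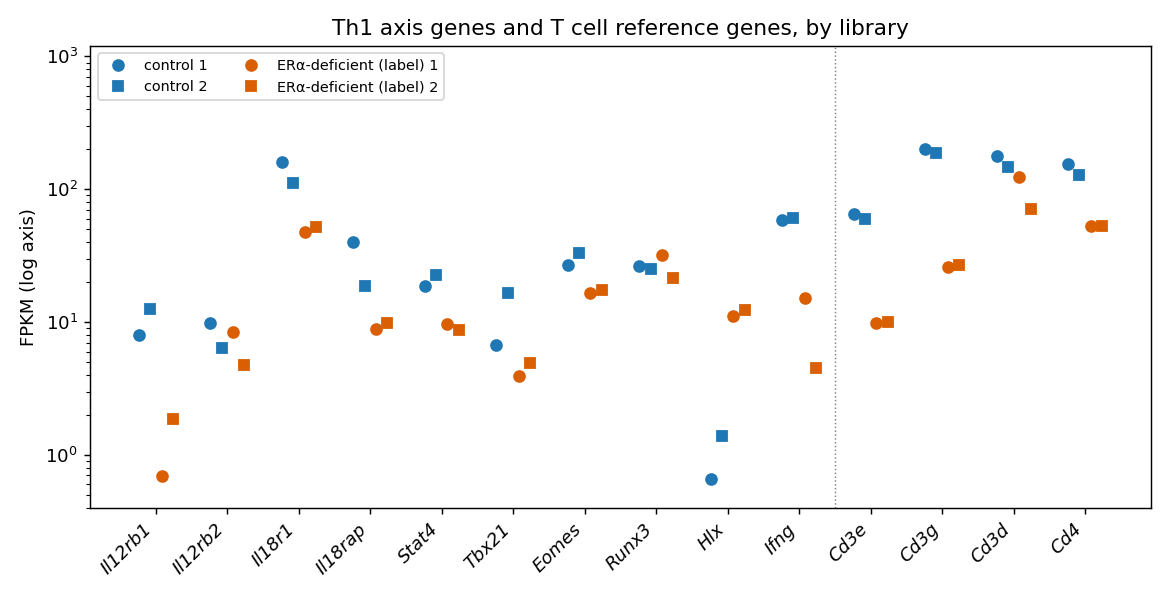
FPKM (log axis) of the 10 Th1 axis genes, left of the dotted line, and of the T cell genes Cd3e, Cd3g, Cd3d and Cd4, in each of 2 control libraries (blue) and 2 CD4Cre libraries (orange, labelled ERα-deficient); each point is 1 library. Ifng, Il12rb1, Il18r1, Il18rap, Stat4, Tbx21 and Eomes have both orange points below both blue points, Hlx has both above, and Runx3 and Il12rb2 overlap.

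For the IL-12 receptor, the groups were separate in Il12rb1 and overlapped in Il12rb2. Il12rb1, the chain shared with the IL-23 receptor (NCBI gene 16161, chromosome 8 of GRCm38 from 70808360 to 70823542), had control values of 7.95 and 12.5 FPKM, and 0.69 and 1.86 in the CD4Cre libraries. The groups did not overlap, and the 4 values rest on an estimated 16, 24, 1 and 3 fragments. Pooled over each group, the fragments gave a level 7.76 times higher in controls, with an exact 95% interval of 2.81 to 29.9 for counting error alone. Its log2 fold change was -2.32 ± 0.53 (SE), with an adjusted p of 0.159 in limma. Il12rb2, the chain that carries the docking site for Stat4 (NCBI gene 16162, chromosome 6, 67285986 to 67376293), had 9.83 and 6.35 FPKM in controls, against 8.42 and 4.73 in the other libraries. These values interleave, and the log2 fold change was -0.28 ± 0.47 (SE, 95% interval -1.46 to 0.90, adjusted p = 0.804 in limma). Without CD4Cre 2 it was 0.08. The exons of Il12rb2 share 1519 bases with Serbp1 on the opposite strand, so its level is uncertain. Serbp1, an mRNA-binding protein, had 44.2 and 66.0 FPKM in controls, against 45.2 and 42.1 in the other libraries. Whether the chains differ from each other in their difference between groups was not tested.

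Both IL-18 receptor chains had lower values in the CD4Cre libraries. Il18r1, the chain that binds the cytokine (NCBI gene 16182, chromosome 1, 40465552 to 40500854), had the highest level of the 10 members in every library. It stood at 159.98 FPKM in control 1, 112 in control 2, and 47.7 and 51.6 in the CD4Cre libraries. Both lower values lie far under the control range, at a mean of 136 ± 33.7 against 49.7 ± 2.77 FPKM (SD, n = 2). The log2 fold change was -1.42 ± 0.31 (SE, adjusted p = 0.152 in limma). Il18rap, the accessory chain needed for signalling, is the neighbouring gene on the chromosome (NCBI gene 16174, chromosome 1, 40515362 to 40551707). It had 40.1 and 18.6 FPKM in controls, against 8.90 and 9.80 in the others. Control 1 was the high library here, and the groups did not overlap. The fragments, 198 in controls and 49 in the others, gave a level 3.14 times higher in controls (exact 95% interval 2.29 to 4.38, counting error only). The log2 fold change of Il18rap was -1.46 ± 0.46 (SE, adjusted p = 0.238 in limma), and -0.92 without control 1. Its level was below that of Il18r1 in all 4 libraries.

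Stat4, the transcription factor activated by the IL-12 receptor (NCBI gene 20849, chromosome 1, 51987106 to 52107189), had 18.55 and 22.45 FPKM in controls, against 9.68 and 8.69 in the CD4Cre libraries. The groups did not overlap, with a log2 fold change of -1.07 ± 0.35 (SE, adjusted p = 0.247 in limma). Its exons share 1033 bases with Gm28177 on the same strand, so fragments of the pair cannot be told apart there.

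Tbx21, which encodes T-bet (NCBI gene 57765, chromosome 11, 97098007 to 97115331), had 6.72 FPKM in control 1 and 16.5 in control 2, and 3.90 and 4.90 in the CD4Cre libraries. The controls differed from each other by more than control 1 differed from the other group. Counting error for these values is wide, on an estimated 12, 27, 5 and 7 fragments, and the exact 95% interval of control 1 was 3.58 to 12.1 FPKM. The log2 fold change was -1.11 ± 0.53 (SE, adjusted p = 0.383 in limma). It was -0.52 without control 2 and -1.70 without control 1. Eomes, the T-box relative of T-bet (NCBI gene 13813, chromosome 9, 118478186 to 118486132), had 27.1 and 33.3 FPKM in controls, against 16.5 and 17.5 in the others. Its level was above that of Tbx21 in each library, and its log2 fold change was -0.78 ± 0.33 (SE, adjusted p = 0.326 in limma). Eomes shares 118 exon bases with Gm33460 on the opposite strand.

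Runx3, a partner of T-bet and a repressor of Il4 in Th1 cells (NCBI gene 12399, chromosome 4, 135120645 to 135177990), had 26.6 and 25.02 FPKM in controls, against 31.7 and 21.3 in the CD4Cre libraries. Both control values lie between the others. On an estimated 72, 65, 62 and 46 fragments, the ratio of the CD4Cre libraries to controls was 1.01 (exact 95% interval 0.78 to 1.32, counting error only). The log2 fold change was 0.01 ± 0.35 (SE, 95% interval -0.86 to 0.88, adjusted p = 0.990 in limma).

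Hlx, a homeobox factor that cooperates with T-bet (NCBI gene 15284, chromosome 1, 184727143 to 184732493), had higher values in the CD4Cre libraries, opposite to the 8 members with a lower mean. It had 0.66 and 1.39 FPKM in controls, against 11.0 and 12.4 in the CD4Cre libraries, on an estimated 1, 2, 13 and 16 fragments. In both control libraries Hlx was below the 1.89 to 1.98 FPKM that 3 fragments are worth on its transcript, the upper limit that a count of 0 allows. Pooled fragments gave a level 12.5 times higher in the CD4Cre libraries, with an exact 95% interval of 3.86 to 63.9 for counting error alone. The log2 fold change was 2.67 ± 0.47 (SE, adjusted p = 0.129 in limma). Hlx is also expressed outside T cells. Summed macrophage and monocyte markers moved with it, at 95.3 and 472 FPKM in controls, against 2753 and 3291 in the others, and their part in the level of Hlx was not tested.

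Ifng (NCBI gene 15978, chromosome 10, 118441046 to 118445894) had nearly equal values in controls, 58.9 and 60.5 FPKM, and lower and unequal values in the CD4Cre libraries, 15.05 and 4.51. The estimated fragments were 50, 49, 9 and 3. Pooled over each group they gave a level 6.41 times higher in controls (exact 95% interval 3.51 to 12.8, counting error only). The intervals of the CD4Cre libraries, 6.81 to 28.3 and 0.92 to 13.0 FPKM, overlap each other and lie below those of the controls, of which the lowest bound was 44.1. The log2 fold change was -2.69 ± 0.56 (SE, adjusted p = 0.148 in limma), and -1.92 without CD4Cre 2. Ifng and Il12rb1 had the lowest log2 fold changes of the 10 members, and their order turned with a pseudocount of 0.1, at -2.84 for Ifng and -3.02 for Il12rb1, and without CD4Cre 2, at -1.92 and -2.70. The transcript of Ifng shares 249 bases with Gm49751 on the same strand.

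In controls the order of mean levels was Il18r1, Ifng, Eomes, Il18rap, Runx3, Stat4, Tbx21, Il12rb1, Il12rb2 and Hlx. The neighbours Eomes (30.2 ± 4.42), Il18rap (29.3 ± 15.2) and Runx3 (25.8 ± 1.14) lay within their spread of each other (FPKM, SD, n = 2). So did Tbx21 (11.6 ± 6.89), Il12rb1 (10.2 ± 3.22) and Il12rb2 (8.09 ± 2.46). In the CD4Cre libraries Il18r1 was still the highest and Runx3 (26.5 ± 7.35) and Eomes (17.0 ± 0.74) came next. Hlx (11.7 ± 0.95) there stood above Stat4 (9.19 ± 0.70), and Il12rb1 (1.27 ± 0.83) was the lowest.

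The members were also set against Cd3e and Cd3g, invariant chains of the T cell receptor complex, in each library. Cd3e had 65.5 and 60.2 FPKM in controls, against 9.81 and 10.1 in the CD4Cre libraries. Cd3g had 202 and 187 against 25.9 and 26.8. In the CD4Cre libraries these values rest on an estimated 7 and 8 fragments for Cd3e and 13 and 15 for Cd3g. Their exact 95% intervals were 3.85 to 19.7 and 4.23 to 19.3 FPKM for Cd3e. For Cd3g they were 13.5 to 43.5 and 14.7 to 43.3 FPKM. All values relative to Cd3e and Cd3g share this counting error. Cd3e shares 135 exon bases with Gm48719 on the opposite strand. On this scale 8 members rose, all but Ifng and Il12rb1. This count is near the background, since 88% of all genes tested were called higher and 0.124% lower in limma. Every gene of a library is shifted by the same amount here, and the median of all genes was 2.62. Against it the median of the members was 1.60, and 8 of 10 members lay below it, Runx3 (2.70) and Hlx (5.36) above. The shift keeps the place of each member against that median, so this adds nothing to the deposited values.

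Relative to the mean of Cd3e and Cd3g, Ifng had 44.1% and 48.9% in controls, and 84.4% and 24.5% in the CD4Cre libraries. These libraries lie on either side of the controls, and the log2 fold change was 0.00 ± 0.56 (SE, adjusted p = 0.999 in limma). It was -0.79 without CD4Cre 1 and 0.79 without CD4Cre 2. Il12rb1 had 5.96% and 10.1% against 3.87% and 10.1%, a mean of 8.03% against 6.98%. Its log2 fold change had the other sign with a pseudocount of 1, at 0.37 ± 0.54 (SE, adjusted p = 0.532 in limma), and was -0.25 with a pseudocount of 0.1, so no direction is given for Il12rb1 on this scale. The IL-18 receptor chains rose relative to Cd3e and Cd3g, but by less than the median of all genes tested, 2.62. Il18r1 stood at 119.8% and 90.8% in controls, against 268% and 280.1% in the others (log2 fold change 1.27 ± 0.29 SE, limma adjusted p = 0.00762). Il18rap stood at 30.03% and 15.01% against 49.9% and 53.2% (1.23 ± 0.44, SE, adjusted p = 0.0372). The call of Il18rap was lost without any of 3 libraries, at an adjusted p of 0.187 without control 2 and of 0.0759 and 0.0954 without either CD4Cre library. It was also lost relative to Cd3e alone (0.0568), relative to the list of T cell markers (0.112) and with a pseudocount of 0.1 (0.0552). Under those 3 settings 7, 6 and 6 of the 10 members were called higher. Most genes were called higher there too, 11071 of 12894, 10346 of 12882 and 9733 of 12894 tested.

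Tbx21 stood at 5.03% and 13.3% of the Cd3e and Cd3g mean in controls and at 21.9% and 26.6% in the CD4Cre libraries. Its relative log2 fold change was 1.58 ± 0.55 (SE, adjusted p = 0.0344 in limma), and the call was lost without control 1 (adjusted p = 0.208) and without either CD4Cre library (0.0723 and 0.11). It was also lost relative to the list of T cell markers (1.18, adjusted p = 0.115 in limma) and with a pseudocount of 0.1 (1.51, adjusted p = 0.0733). Stat4 stood at 13.9% and 18.1% against 54.3% and 47.1% (1.62 ± 0.37, SE, adjusted p = 0.00764), with an adjusted p of 0.0506 without control 1. Eomes stood at 20.3% and 26.9% against 92.5% and 95.1%, Runx3 at 19.9% and 20.2% against 178% and 116%, and Il12rb2 at 7.36% and 5.13% against 47.2% and 25.7%. Hlx had the largest ratio between the groups, though not the largest difference in percent, with 0.49% and 1.12% in controls, against 61.8% and 67.2% in the others.

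**Figure D2:**
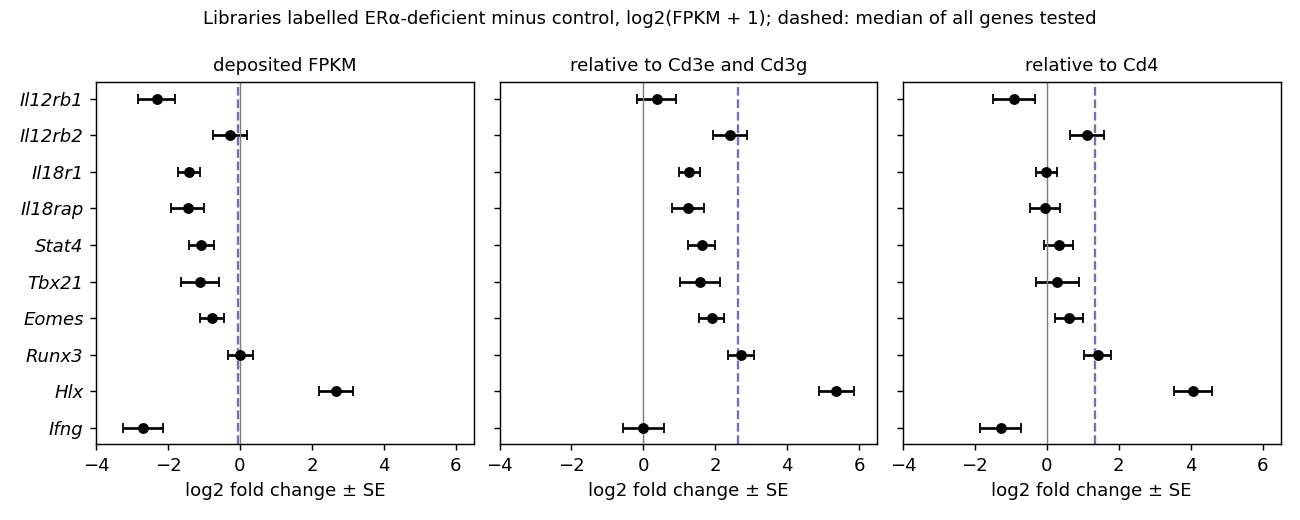
Log2 fold change ± SE of each Th1 axis gene, CD4Cre libraries minus control on log2(FPKM + 1), for the deposited FPKM, relative to Cd3e and Cd3g, and relative to Cd4 (n = 2 libraries a group); the dashed line is the median of all genes tested. Ifng moves from -2.69 to 0.00 to -1.28 over the panels. Genes and dashed line shift together, so the place of Hlx right of that line is fixed by the first panel.

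The direction of most members differed with the reference. Cd3d, another chain of the same complex, had 177 and 146 FPKM in controls, against 124 and 70.9 in the CD4Cre libraries. The ratio of control to CD4Cre means was 1.66 for Cd3d, against 6.32 for Cd3e and 7.38 for Cd3g. Cd4 had 155 and 128 against 52.6 and 52.4. Relative to Cd4, a reference added after the values were seen, 2 members rose in limma, Hlx (4.08 ± 0.53, SE, adjusted p = 0.0169) and Runx3 (1.42 ± 0.38, SE, adjusted p = 0.033), where 38.4% of all genes were called higher and 0.334% lower. On that scale the IL-18 receptor chains had log2 fold changes near 0, at -0.01 ± 0.30 for Il18r1 and -0.05 ± 0.43 for Il18rap (SE). Ifng was at -1.28 ± 0.56 and Il12rb1 at -0.92 ± 0.58 (SE, adjusted p = 0.106 and 0.222). Relative to Cd3d, also added, 1 member rose (Hlx), where 4.48% of all genes were called higher and 0.256% lower, and 7 members had negative values.

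Of the cytokines upstream of the axis, Il18 and Il12b had higher values and Il21 had lower ones in the CD4Cre libraries. Of 9 listed genes 6 could be tested, and 5 had a higher mean and 1 a lower one. In limma 0 were called, with 2 higher and 1 lower at an unadjusted p under 0.05. Over all genes tested, 9.1% were higher and 6.8% lower at that level, and 53.6% had a lower mean. Il18 was listed at 0 in control 1 and had 7.13 FPKM in control 2, against 49.7 and 70.1 in the CD4Cre libraries (log2 fold change 4.40 ± 0.98 SE, limma adjusted p = 0.159). Both of the latter are far above both controls. Il12b, the p40 chain of IL-12 and IL-23, had 1.73 and 1.80 against 4.77 and 3.60 FPKM (0.90 ± 0.49, SE, adjusted p = 0.435 in limma). Its control values lie below the 2.15 and 2.25 FPKM that 3 fragments of a 2000-base transcript are worth there. Il21, a cytokine of helper T cells, had 4.22 and 5.44 against 0.66 and 0.56 FPKM (adjusted p = 0.202 in limma). In the CD4Cre libraries a single fragment of a 2000-base transcript is worth more, 1.0 and 0.895 FPKM. The receptor for IL-18 had lower values in the libraries in which the transcript of its ligand had higher ones. In the same libraries summed macrophage markers were higher, as given above, and their part in this was not tested.

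The signalling genes behind the receptors were mixed. Of 14 tested genes, 6 had a higher and 8 a lower mean, where 53.6% of all genes tested had a lower one. The median log2 fold change was -0.06, and 0 were called in limma. At an unadjusted p under 0.05, 2 were lower and 0 higher, against 6.8% and 9.1% of all genes. Il27ra, the receptor chain for IL-27, had 32.1 and 25.8 FPKM in controls, against 5.21 and 6.02 in the others (-2.17 ± 0.36, SE, adjusted p = 0.122). Socs1, a feedback inhibitor of Jak kinases, had 7.15 and 7.50 FPKM, was listed at 0 in CD4Cre 1 and had 1.49 in the second. The kinases of the IL-12 receptor showed smaller differences. Jak2 had 15.4 and 23.1 against 27.0 and 29.1 FPKM, and Tyk2 11.2 and 10.5 against 7.79 and 13.3. The adaptor Myd88 had 17.0 in both controls and 13.3 and 18.4 in the others. These genes are expressed in many blood cells.

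In the interferon-γ receptor arm, 5 of 10 genes had a higher and 5 a lower mean, where 53.6% of all genes tested had a lower one. Limma called 0 of them. At an unadjusted p under 0.05, 2 were higher and 1 lower, against 9.1% and 6.8% of all genes. The receptor chains had higher values without overlap, as did 23.2% of all genes tested. Ifngr1 had 32.1 and 43.0 against 46.6 and 70.9 FPKM and Ifngr2 34.2 and 34.1 against 55.3 and 47.3 (adjusted p = 0.456 and 0.415 in limma). Ciita, the inducer of class II genes, had 0.55 and 8.76 against 21.4 and 21.6 FPKM (2.53 ± 0.88, SE, adjusted p = 0.263). Irf8, a factor of myeloid and B cells that interferon-γ induces, had 1.50 and 15.7 against 28.5 and 35.6 (adjusted p = 0.299). Both had more in control 2 than in control 1, as did the summed dendritic cell markers (76.5 and 123 FPKM in controls, 217 and 242 in the others). So did the summed macrophage and monocyte markers, at 95.3 and 472 FPKM in controls, against 2753 and 3291 in the others. The sums of NK, B cell and erythroid markers were also higher in control 2, and those of T cell and CD8 T cell markers lower. Of the 8 dendritic cell markers 7 had a higher mean and 1, Xcr1, a lower one. Xcr1 made up most of the dendritic cell sum in control 1, at 73.35 FPKM, with 62.8 in control 2 and 46.7 and 48.5 in the others. The part of dendritic cells, macrophages or other cells in the values of Ciita and Irf8 was not tested.

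T-bet partners and further Th1 factors had lower means in 10 of 12 tested genes, with a median log2 fold change of -0.50, 0 called in limma, and 3 lower and 1 higher at an unadjusted p under 0.05. Ets1, a T cell factor that acts with T-bet, had 128 and 70.2 FPKM in controls, against 11.1 and 14.4 in the others (-2.81 ± 0.40, SE, adjusted p = 0.108). Zeb2, a factor of terminal effector cells and of macrophages, was the only tested gene of this list with higher values without overlap, at 1.99 and 6.74 against 39.5 and 37.9 FPKM (3.04 ± 0.54, SE, adjusted p = 0.129). Runx1 interleaved. Th1 effector and surface genes had lower means in 11 of 16 tested genes, with a median of -0.86. In limma 0 were called, with 6 lower and 1 higher at an unadjusted p under 0.05. Against these 2 lists, 53.6% of all genes tested had a lower mean. At that p, 6.8% of all genes were lower and 9.1% higher. Cxcr3, the chemokine receptor that T-bet induces, had 17.0 and 24.5 FPKM in controls, against 3.74 and 3.36 in the others (-2.24 ± 0.40, SE, adjusted p = 0.129). Il2rb, a receptor chain for IL-2 and IL-15, had 33.7 and 26.0 against 7.33 and 8.56 (-1.78 ± 0.36, SE, adjusted p = 0.144).

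**Figure D3:**
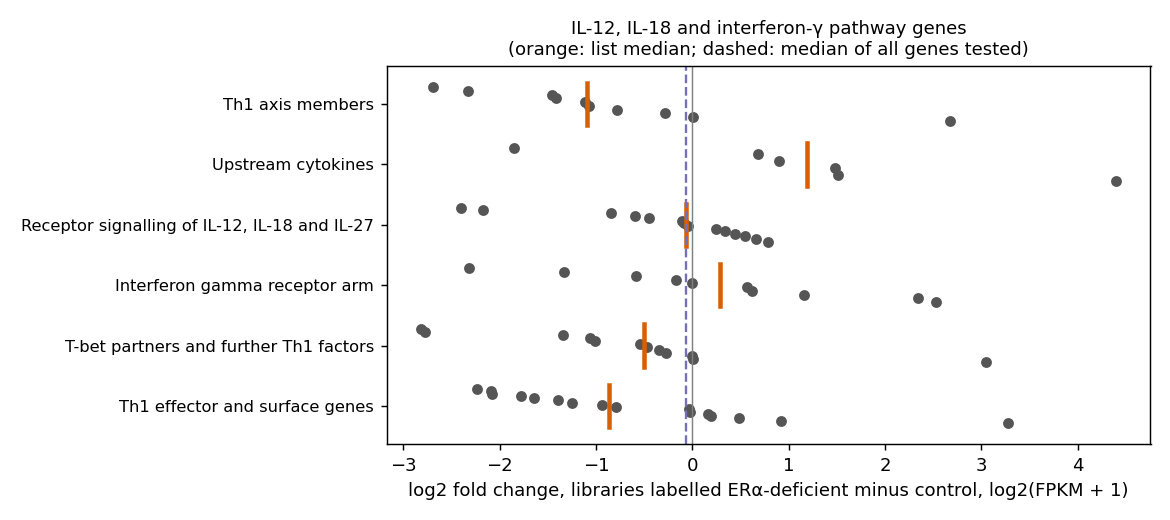
Log2 fold change of each tested gene, CD4Cre libraries minus control on log2(FPKM + 1), for the Th1 axis members and 5 lists of pathway genes (1 point a gene); the orange bar is the list median and the dashed line the median of all genes tested, -0.07. The medians run from -1.09 for the members to 1.19 for the upstream cytokines.

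NK cells share much of the Th1 axis, and NK and innate lymphocyte markers, members left out, mostly had higher values in the CD4Cre libraries. Of 17 such markers 14 had a higher mean and 3 a lower one. Without overlap 11 were higher and 2 lower, where 23.2% of all genes tested were higher and 25.7% lower. In limma 0 were called, with 9 higher and 1 lower at an unadjusted p under 0.05, against 9.1% and 6.8% of all genes. The sums of the 17 markers were 87.8 and 226 FPKM in controls, against 757 and 748 in the CD4Cre libraries. Tyrobp and Fcer1g, which macrophages also express, make up most of that sum in the CD4Cre libraries, with Tyrobp at 371 and 327 and Fcer1g at 246 and 188 FPKM. Of the defining markers, Ncr1 had 0 and 0 against 8.25 and 19.8 FPKM, Klra8 had 0 and 0 against 14.7 and 9.28, and Klrb1c had 0 and 1.14 against 4.52 and 4.46. The 3 markers with a lower mean were Nkg7, a granule protein of cytotoxic cells, at 49.03 and 47.6 against 5.05 and 24.97 FPKM, Prf1 (perforin) at 6.31 and 5.25 against 6.81 and 2.62, and the integrin Itga2 at 2.35 and 1.06 against 0.93 and 0.42. The part of NK cells in the values of Tbx21, Eomes, Runx3 and Ifng was not tested. Cd8a, of CD8 T cells, which also express Eomes and Runx3, had 12.6 and 8.20 against 26.1 and 14.1 FPKM. Cd8b1, the other listed CD8 gene, overlapped between the groups, at 66.2 and 35.5 against 130 and 49.2 FPKM.

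**Figure D4:**
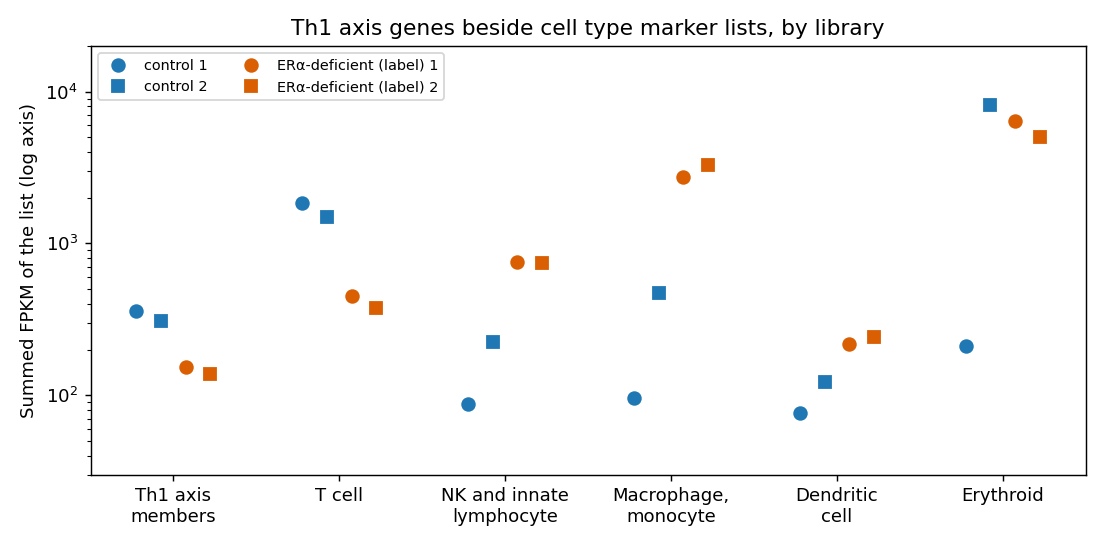
Summed FPKM (log axis) of the 10 Th1 axis genes and of 5 lists of cell type markers, in each of 2 control libraries (blue) and 2 CD4Cre libraries (orange). The sums of the Th1 axis genes (356 and 309 against 154 and 137) and of T cell markers are lower in the orange libraries, those of NK, macrophage and dendritic cell markers are higher, and control 1 is low in erythroid markers.

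The genes closest to Ifng in pattern, by Euclidean distance of centred log2(FPKM + 1) over the 4 libraries among 5546 genes with a mean of at least 10 FPKM, were Batf (distance 0.35), Gimap4 (0.46) and Sit1 (0.50). Batf, an AP-1 family factor of helper T cells, had 63.4 and 85.2 FPKM in controls, against 15.8 and 6.10 in the others. Gimap4, a lymphocyte GTPase, had 270.2 and 325 against 54.9 and 26.6, and Sit1, an adaptor of the T cell receptor, 29.1 and 26.7 against 10.1 and 1.51. Few genes were as near: 2 of 5546 lay within a distance of 0.5. For Tbx21 the nearest were Trim59 (0.11), the cohesin subunit Rad21 (0.26) and the respiratory chain subunit Ndufa9 (0.26), and 41 genes lay within 0.5. With 4 libraries such likeness describes these values only.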

How the data were processed

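Sorted CD4 T cell RNA was sequenced in 4 libraries, 2 a group. The authors deposited FPKM values, 1 per NCBI gene. The submitters' processing notes list HISAT, Bowtie2 and RSEM without versions, and the build mm10. Whether strand was used is not stated there. Of 16230 identifiers, 16183 matched GRCm38.p6, and 23 date-like symbols were restored. All genes averaging 1 FPKM or more entered a limma fit (limma 3.58.1, R 4.3.3) of log2(FPKM + 1), group as the only term, with an empirical Bayes trend, two-sided, Benjamini-Hochberg adjusted over all genes, called under 0.05. The same fit was made after subtracting the mean of Cd3e and Cd3g. A pseudocount understates the change of low genes. A permutation test of 1 gene cannot go below p = 0.333 here.

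Fragments were recovered for genes with 1 transcript over 800 bases (10348 genes, GENCODE M21 lengths). At the fitted step 76.3% to 80.2% of low values lay within 0.2 of a whole fragment. Intervals are exact (95%) and cover counting error only. The voom fit used these fragments, rounded. Procedures were tested on simulated data.

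Members and lists were chosen with earlier results of these data known. All members are named whatever their result. Each pathway list gives its called genes, or with none its 2 genes of lowest unadjusted p, plus Il12b, Il18, Ifngr1, Ifngr2, Jak2, Tyk2 and Cxcr3 for their role; another gene of this rule is not reported here. Others (Myd88, Runx1, Serbp1, Cd3d, Cd4, Tyrobp, Fcer1g, Cd8a, Cd8b1, Xcr1, Nkg7, Prf1, Itga2, Cd22, Cd79a, Cd79b, Ms4a1) were chosen after their values were seen. Ncr1, Klra8 and Klrb1c are given as the markers listed as defining NK cells. Summed markers of B cells were 51.7 to 77.1 FPKM in controls and 81.7 to 206 in the other libraries. Cd22 made up most of each sum, at 51.7 and 65.9 FPKM in controls, against 199 and 76.3 in the others. Cd79a stood at 0 and 2.29 against 0 and 0 FPKM, and Ms4a1 at 0 and 0 against 0 and 0.87. Cd79b overlapped, at 0 and 8.91 against 6.76 and 4.55 FPKM. Summed markers of erythroid cells were 212 to 8118 FPKM in controls and 5051 to 6425 in the others.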

Additional observations from a re-analysis of the deposited data

How the results depend on the processing

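No member was called on the deposited FPKM in limma under any alternative run, with 3 to 7 at an unadjusted p under 0.05. Over all genes, 2 higher and 5 lower calls became 0 and 0 with a pseudocount of 0.1, no filter, no trend, the replicate block, or any library left out (range 0 to 0), and 0 and 4 at a mean FPKM of at least 5. With voom weights 84 were higher and 23 lower. Equal replicate numbers are not said to mark a shared animal, and same-numbered libraries did not deviate together (r = -0.002 across genes), so the replicate block, which gave 8 relative member calls (11386 genes higher, 18 lower), is given only here. Runx3 turned to -0.0159 with quantile scaling. With a library left out, Runx3 ranged from -0.264 to 0.287 (-0.0317 without control 2) and Il12rb2 from -0.639 to 0.0784. Relative to Cd3e and Cd3g, 11341 genes were higher and 16 lower, the latter 31 with a pseudocount of 0.1 and 22 to 43 with a library left out (9875 to 11264 higher, 6 to 7 members). Relative to Cd4 there were 4949 higher, 43 lower and 2 members, and relative to Cd3d 578, 33 and 1. Ifng turned to -0.146 relative to Cd3e, -0.399 relative to the T cell list, -0.0751 with a pseudocount of 0.1 and ranged from -0.791 to 0.793 with a library left out (-0.0739 without control 1). It was -1.28 relative to Cd4 and -1.91 relative to Cd3d. Il12rb1 turned to -0.0317 (T cell list), -0.254 (pseudocount of 0.1), -0.916 (Cd4) and -1.55 (Cd3d). Il18r1 and Il18rap turned to -0.0096 and -0.0495 relative to Cd4 and to -0.64 and -0.68 relative to Cd3d, where Tbx21 was -0.335, Stat4 -0.298 and Eomes -0.0094. These directions differ with the T cell reference, and the cause was not tested. A lone library left in a group is assumed to vary like the other group.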
